A study of Mus musculus with 2 samples.

Results

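The 7 globin genes described here are the embryonic alpha-like gene Hba-x (zeta), the embryonic beta-like genes Hbb-y (epsilon-y) and Hbb-bh1 (beta-h1), the adult alpha-like genes Hba-a1 and Hba-a2, and the adult beta-like genes Hbb-bs and Hbb-bt. They were chosen by name, were found by matching Ensembl identifiers to symbols, and are 7 of the 43346 Ensembl genes in the deposited tables. The data are 2 sequencing libraries of total RNA longer than 200 nt, each made from 10 ng of RNA from limbs of mouse embryos (strain B6NCrl, embryonic day 13.5, E13.5). Male and female embryos were pooled, and the labels call the tissue healthy and name no treatment or genotype other than the strain. Both libraries belong to 1 group, E13.5 limb, and carry biological replicate numbers 2 and 1. The labels give them different tissue samples but the same donor entry, so that the error given as ± (SD, n = 2) is the spread between these samples, whose independence rests on the numbering. Replicate 2 held 43194518 and replicate 1 held 31927117 expected counts, including 2.07% and 2.11% from added ERCC spike-in RNAs. There is no other condition, and no test between conditions was possible.

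Haemoglobin is built from alpha-like and beta-like chains, each bound to a haem group. In mice, the first red cells come from the yolk sac and carry embryonic chains, while the red cells made later in the fetal liver carry adult chains; as yolk sac red cells mature in the circulation, their beta-like RNA passes from Hbb-bh1 to Hbb-y, and they also make adult alpha chains. The alpha-like genes lie on chromosome 11 with the embryonic gene first in the direction of transcription, and the beta-like genes lie on chromosome 7. Red cells held in the vessels of a whole limb carry globin RNA, but the source of the globin RNA measured here was not tested. In such bulk samples fewer red cells and less globin RNA per red cell cannot be told apart.

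The coding sequences differ little between the adult copies of a class and much between embryonic and adult forms, which bears on how reads could be assigned. The first 60 coding bases are shown for 1 adult gene of each class and for its embryonic relatives, from the GENCODE M21 transcripts, with capitals at every base that differs from the adult gene printed with it. The adult gene stands last in each class.
Hba-x: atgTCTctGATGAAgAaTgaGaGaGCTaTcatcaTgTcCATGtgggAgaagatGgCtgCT
Hba-a2: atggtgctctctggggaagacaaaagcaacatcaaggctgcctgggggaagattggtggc
Hbb-y: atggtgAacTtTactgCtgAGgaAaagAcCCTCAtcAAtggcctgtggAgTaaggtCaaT
Hbb-bh1: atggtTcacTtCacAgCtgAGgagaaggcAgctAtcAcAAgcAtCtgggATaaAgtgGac
Hbb-bs: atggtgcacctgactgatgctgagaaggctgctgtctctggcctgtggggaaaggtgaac
Over these 60 bases Hba-x differed from Hba-a2 at 28 positions, Hbb-y from Hbb-bs at 19 and Hbb-bh1 from Hbb-bs at 18. Hba-a1 had the same 60 bases as Hba-a2, and Hbb-bt the same as Hbb-bs.

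Over the whole coding sequence without the stop codon, Hba-a1 and Hba-a2 shared 425 of 426 bases and Hbb-bs and Hbb-bt shared 440 of 441. The stretches around the differing base are printed because they hold the coding difference of each adult pair, which is in capitals. Coding bases 352 to 411 are given for the alpha pair and 382 to 441 for the beta pair, counted from the A of the start codon.
Hba-a2: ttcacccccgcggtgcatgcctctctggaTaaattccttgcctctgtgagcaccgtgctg
Hba-a1: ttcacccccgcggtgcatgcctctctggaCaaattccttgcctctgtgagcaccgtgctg
Hbb-bt: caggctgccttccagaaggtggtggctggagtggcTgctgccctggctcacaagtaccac
Hbb-bs: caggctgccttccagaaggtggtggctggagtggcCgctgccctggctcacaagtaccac
Written with the base of Hba-a1 or Hbb-bs first, the differences were C381T in the alpha pair and C417T in the beta pair. Hba-x was 62.6% identical to Hba-a2 in an alignment of the coding sequences, Hbb-y was 74.4% and Hbb-bh1 73.9% identical to Hbb-bs, and Hbb-y and Hbb-bh1 were 76.4% identical to each other.

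Upstream sequence was compared next. Of the 7 genes, 6 had a RefSeq transcription start with 250 upstream bases (GRCm38.p6), all but Hbb-bh1. These starts lie inside the gene spans of GENCODE M21 given further on, so that each window is partly within its gene. The RefSeq start of Hbb-bs was 103827928, while its span reaches 103828096. For Hba-a1 the start was 32283672 and the span begins at 32283511, and for Hba-x these were 32276600 and 32276400. The upstream sequences of an embryonic and 2 adult genes are shown because globin promoters carry short boxes bound by red cell factors. Capitals mark matches on either strand to the following motifs. CACCC is the core of the box bound by the red cell factor Klf1, CCAAT is a general promoter box, and GATAA is the core bound by Gata1. TATAA is the usual TATA box and ATAAA a variant found at beta-like globin promoters. TGACC is the core bound by nuclear receptors, among them repressors of embryonic globin genes. Adjoining capitals can belong to overlapping motifs. The windows were chr7:103853208-103853457 (minus strand) for Hbb-y, chr11:32296242-32296491 (plus strand) for Hba-a2 and chr7:103827929-103828178 (minus strand) for Hbb-bs, each given 5′ to 3′ toward the start.
Hbb-y: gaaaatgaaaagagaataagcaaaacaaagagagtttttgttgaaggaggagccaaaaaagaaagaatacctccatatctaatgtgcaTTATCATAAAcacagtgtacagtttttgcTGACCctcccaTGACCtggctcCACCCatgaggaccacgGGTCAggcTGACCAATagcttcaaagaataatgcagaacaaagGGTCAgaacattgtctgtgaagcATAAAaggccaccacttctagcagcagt
Hba-a2: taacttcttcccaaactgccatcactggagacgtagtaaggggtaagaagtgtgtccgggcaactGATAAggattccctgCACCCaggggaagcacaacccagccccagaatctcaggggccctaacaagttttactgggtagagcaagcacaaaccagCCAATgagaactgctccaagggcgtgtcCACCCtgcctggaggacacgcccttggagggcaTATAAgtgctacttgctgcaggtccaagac
Hbb-bs: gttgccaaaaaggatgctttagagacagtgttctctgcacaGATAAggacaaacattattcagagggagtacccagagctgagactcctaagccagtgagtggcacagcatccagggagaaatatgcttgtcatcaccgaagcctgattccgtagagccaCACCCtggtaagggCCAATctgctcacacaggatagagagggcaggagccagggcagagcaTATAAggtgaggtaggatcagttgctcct

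Each of these windows held 1 CCAAT and 1 GATAA, and CACCC occurred at 1 position in Hbb-y and Hbb-bs and at 2 positions in Hba-a2. A TATAA ended at base -25 in Hbb-bs and an ATAAA ended at base -24 in Hbb-y, counted back from the start. Hbb-y held 5 matches to TGACC, of which 1 overlapped its CCAAT, while Hba-x and Hbb-bt held 1 each and Hba-a1, Hba-a2 and Hbb-bs held 0. Among the 250-base windows of all 32851 RefSeq starts, 52.0% held CACCC on either strand, 33.8% held CCAAT and 22.6% held GATAA. The TATAA box occurred in 22.8% of them, ATAAA in 37.3% and TGACC in 35.2%, so that single matches to such short motifs are common. The windows of Hba-a1 and Hba-a2 shared an unbroken run of 247 bases, whereas Hbb-bs and Hbb-bt were 68.4% identical and Hba-x and Hba-a2 50.4% identical in an alignment. A match is a string of letters, and binding was not measured here.

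All 7 genes were detected in both libraries, from 59.5 ± 12.4 TPM for Hbb-bh1 to 8591 ± 242 TPM for Hba-a2 (SD, n = 2). TPM is the deposited abundance per transcript length, with an equal total for each library, and levels are compared between genes on this scale alone. The median over all 14986 genes that reached 1 TPM in both libraries was 17.2 TPM. Each member therefore stood above the median of detected genes, and they ranked between 3 and 3005 in mean TPM among all 43346 genes.

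Of the embryonic forms, Hbb-y (chromosome 7, 103851749 to 103853216, minus strand, mm10) had 5399 TPM in replicate 2 and 5327 TPM in replicate 1, rank 8 of all genes. Hba-x (chromosome 11, 32276400 to 32278116, plus strand), the embryonic alpha-like chain, had 499 TPM in replicate 2 and 538 TPM in replicate 1, rank 268. Hbb-bh1 (chromosome 7, 103841637 to 103843164, minus strand), the beta-like chain of the earliest red cells, had 50.7 TPM in replicate 2 and 68.3 TPM in replicate 1, rank 3005. The embryonic class thus held a gene among the 10 most abundant of the tables and also the lowest of the 7 globins.

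The adult forms lay closer together. Hba-a2 (chromosome 11, 32296489 to 32297298, plus strand) had 8762 TPM in replicate 2 and 8420 TPM in replicate 1, rank 3, and Hba-a1 (chromosome 11, 32283511 to 32284465, plus strand) had 3499 TPM in replicate 2 and 3549 TPM in replicate 1, rank 16. Both encode adult alpha chains. Hbb-bs (chromosome 7, 103826534 to 103828096, minus strand) had 2277 TPM in replicate 2 and 2193 TPM in replicate 1, rank 29. Hbb-bt (chromosome 7, 103812524 to 103813996, minus strand), the other adult beta chain, had 2251 TPM in replicate 2 and 2182 TPM in replicate 1, rank 31.

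**Figure D1:**
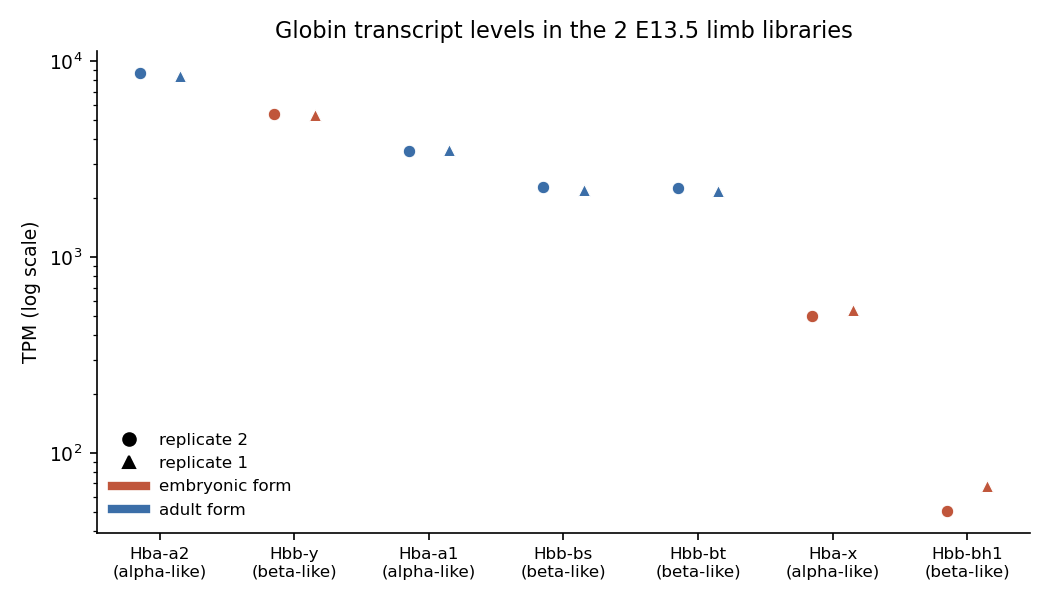
TPM (log axis) of each globin in replicate 2 (circles) and replicate 1 (triangles), in order of mean level, with embryonic forms in red and adult forms in blue. The symbols of the libraries nearly coincide except for Hbb-bh1, at 50.7 TPM in replicate 2 and 68.3 TPM in replicate 1.

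Neighbours in this order were called set apart where the values of the libraries did not overlap and the deposited 95% credibility intervals did not overlap in either library. Hba-a2 was 1.60-fold above Hbb-y, Hbb-y 1.52-fold above Hba-a1, Hba-a1 1.58-fold above Hbb-bs, Hbb-bt 4.28-fold above Hba-x, and Hba-x 8.79-fold above Hbb-bh1, and each of these 5 steps was set apart. Hbb-bs and Hbb-bt were not, with a log2 difference of 0.02 in replicate 2 and 0.01 in replicate 1. The intervals belong to the posterior mean of the level, from which the deposited TPM can deviate slightly, and they cover the assignment of reads within a library rather than the spread between samples. The place of Hba-a1 rests on transcript assignments described further on: from protein-coding transcripts alone it had 853 TPM in replicate 2 and 971 TPM in replicate 1, against 869 and 883 TPM for Hbb-bs and 2251 and 2182 TPM for Hbb-bt. The step to Hbb-bs was then lost and Hba-a1 stood below Hbb-bt.

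The balance of embryonic and adult forms differed between the alpha-like and beta-like classes. Embryonic Hba-x made up 3.91% of the summed TPM of the 3 alpha-like genes in replicate 2 and 4.30% in replicate 1, a mean of 4.10% ± 0.275 (SD, n = 2), and the adult genes made up the other 95.9%. Embryonic Hbb-y and Hbb-bh1 made up 54.6% of the summed TPM of the 4 beta-like genes in replicate 2 and 55.2% in replicate 1, a mean of 54.9% ± 0.430, and adult Hbb-bs and Hbb-bt 45.1%. The shares of each class lay in a narrow range in both libraries, and those of the alpha-like and beta-like genes did not come near each other.

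Reads gave the same order. Counted without division by length, 9118 of 162506 alpha-like reads in replicate 2 were embryonic, 5.61% (95% Wilson interval 5.50 to 5.72), and 7331 of 120502 in replicate 1, 6.08% (5.95 to 6.22). Of the beta-like reads 84684 of 155945 in replicate 2 were embryonic, 54.3% (54.1 to 54.6), and 63101 of 115121 in replicate 1, 54.8% (54.5 to 55.1). The Wilson intervals treat each read as an independent draw and leave out the spread between samples. PCR copies of a molecule are not independent, so the intervals can be too narrow even for counting error. These shares of reads do not depend on how reads were divided between the near-identical adult copies, because those copies fall on the same side of the ratio. Division by length moved the alpha-like share. The TPM shares also depended on which transcripts were summed. From protein-coding transcripts alone the mean embryonic share was 5.17% for alpha-like and 63.7% for beta-like genes.

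Within the embryonic beta-like RNA, Hbb-y dominated. Hbb-bh1 made up 0.931% of their summed TPM in replicate 2, against 1.27% in replicate 1. The log2 ratio of Hbb-y over Hbb-bh1 was 6.73 in replicate 2 and 6.28 in replicate 1. Hbb-y, the embryonic beta-like form, stood 10.8-fold above Hba-x, the embryonic alpha-like form, in replicate 2 and 9.91-fold in replicate 1. Among the adult forms the order of the classes was the other way, with alpha-like over beta-like TPM at 2.71 in replicate 2 and 2.74 in replicate 1.

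**Figure D2:**
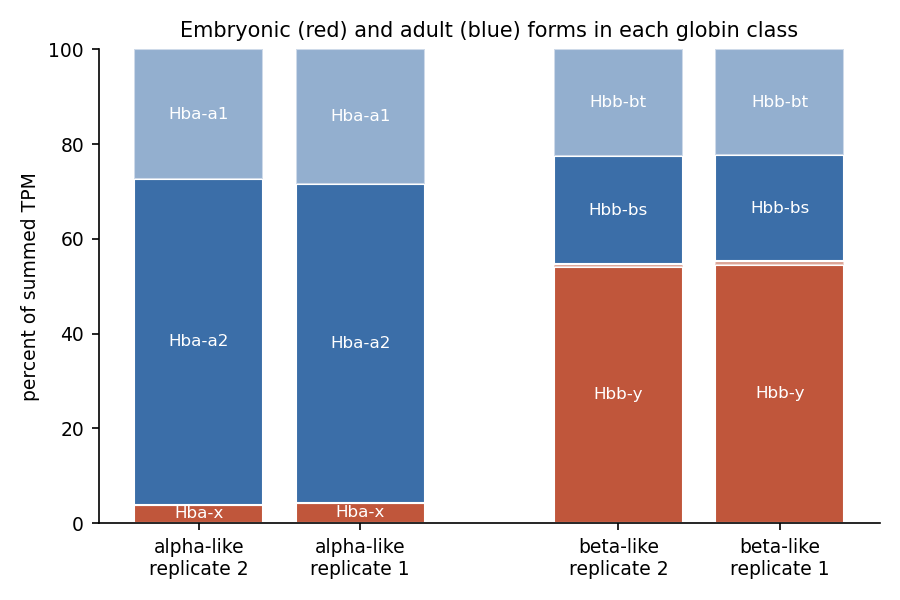
Percent of the summed TPM of the alpha-like (left) and beta-like genes (right) held by each gene in replicate 2 and replicate 1, embryonic forms in red at the bottom and adult forms in blue. Hba-x holds 3.91% and 4.30% of the alpha-like bars and the embryonic genes 54.6% and 55.2% of the beta-like bars, where Hbb-bh1 is the thin pale band.

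Despite these differences within the classes, the class totals were close. The alpha-like genes summed to 12759 TPM in replicate 2 and 12507 TPM in replicate 1, and the beta-like genes to 9979 TPM in replicate 2 and 9770 TPM in replicate 1. Alpha-like RNA was 1.28-fold above beta-like RNA in each library. Together the 7 genes reached 22738 TPM in replicate 2 and 22276 TPM in replicate 1, 2.27% and 2.23% of all TPM, of which the embryonic forms held 26.4% ± 0.332 (SD, n = 2). Of the reads assigned to genes the 7 globins held 0.7528% in replicate 2 and 0.7539% in replicate 1. On this scale short transcripts weigh less than in TPM, and its total leaves out the spike-ins, which the TPM total includes.

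The adult alpha pair was unequal and the adult beta pair close to equal, as far as reads could be told apart. Hba-a2 stood 2.50-fold above Hba-a1 in TPM in replicate 2 and 2.37-fold in replicate 1, and it took 71.9% of the pair's reads in replicate 2 and 70.5% in replicate 1. Hbb-bt took 52.8% of its pair's reads in each library, and its log2 TPM ratio to Hbb-bs was -0.02 in replicate 2 and -0.01 in replicate 1. The sums of a pair were whole numbers of reads, 153388 in replicate 2 and 113171 in replicate 1 for the alpha pair and 71261 in replicate 2 and 52020 in replicate 1 for the beta pair, while the genes of a pair had fractional counts.

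The posterior SD of the deposited counts showed the same division. It was 261.73 reads in replicate 2 and 222.71 in replicate 1 for each of Hba-a1 and Hba-a2, and 228.29 and 198.18 for each of Hbb-bs and Hbb-bt. For Hba-x, Hbb-y and Hbb-bh1 it was 0.00 in both libraries, and their counts were whole numbers. No reads of the embryonic genes had been divided between genes.

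The annotated transcript sequences show how much of each pair is identical. Cut into all windows of 100 nt, the read length that the effective lengths of the tables imply, 339 of the 600 windows of Hba-a1-201 (56.5%) also occurred in Hba-a2, as did 339 of the 455 windows of Hba-a2-201 (74.5%) in Hba-a1. For the beta pair, 331 of the 529 windows of Hbb-bs-201 (62.6%) occurred in Hbb-bt and 331 of the 604 windows of Hbb-bt-201 (54.8%) in Hbb-bs. None of the windows of Hba-x, Hbb-y or Hbb-bh1 occurred in another member. These transcripts are those of GENCODE M21, and the tables used M4, in which 3 of these transcripts are clearly longer. Hbb-bs-202 has 549 nt in the tables and 344 nt in M21, Hbb-bs-201 778 nt and 628 nt, and Hbb-y-201 661 nt and 633 nt.

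Several globin genes have more than 1 annotated transcript, and the reads were spread over these unevenly. Hbb-y, Hbb-bh1 and Hbb-bt each have 1 transcript. Hba-x, the embryonic alpha-like gene, was assigned mainly to Hba-x-201, 406 TPM in replicate 2 and 423 TPM in replicate 1, and in smaller part to Hba-x-202, which has another first exon, at 92.7 TPM and 115 TPM. Hba-a2 was assigned almost wholly to its protein-coding transcript Hba-a2-201, with 8761 TPM in replicate 2 and 8420 TPM in replicate 1. Its retained-intron transcript Hba-a2-202 had 0.760 TPM and 0 TPM.

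Hba-a1 showed the reverse. Its retained-intron transcript Hba-a1-202 had 2646 TPM in replicate 2 and 2578 TPM in replicate 1, 75.6% and 72.6% of the gene, while the protein-coding Hba-a1-201 had 853 TPM and 971 TPM. Hba-a1-202 is annotated as starting inside the first intron, holds 113 of that intron's 122 bases, and has the second intron removed. Of its 395 windows 299 also occurred in Hba-a2 and the other 96 in Hba-a1-201, so that 0 windows belonged to this transcript alone. Hba-a2-202 has the same counts of windows, and no window in either transcript could tell it from all others. The protein-coding transcripts are annotated unequally, Hba-a1-201 with 699 nt and Hba-a2-201 with 554 nt. Of their windows, 165 of 600 and 20 of 455 occurred in that transcript alone. The part of this annotation in the contrast between Hba-a1 and Hba-a2 was not tested.

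Hbb-bs, an adult beta gene, was likewise assigned mostly to a retained-intron transcript, Hbb-bs-202, with 1409 TPM in replicate 2 and 1309 TPM in replicate 1 (61.9% and 59.7%). The protein-coding Hbb-bs-201 had 846 TPM and 857 TPM, and Hbb-bs-203 22.3 TPM and 26.7 TPM. The M21 form of Hbb-bs-202, which is shorter than the form that the tables measured, holds 55 of the 113 bases of the first intron, and 53 of its 245 windows occurred in no other globin transcript. These values do not describe the longer form. With protein-coding transcripts alone, the log2 ratio of Hba-a2 over Hba-a1 was 3.24 in place of 1.29 and that of Hbb-bt over Hbb-bs 1.34 in place of -0.01, so the balance within each adult pair rests on these assignments, as does the order of the adult genes across classes.

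**Figure D3:**
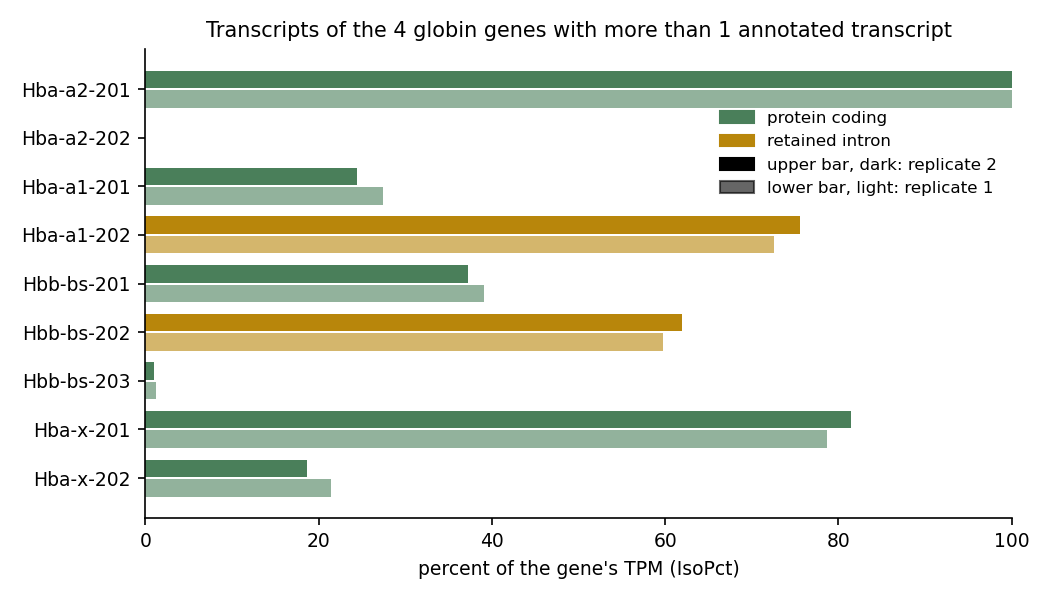
Percent of each gene's TPM assigned to each annotated transcript (horizontal axis) for the 4 genes with more than 1, with replicate 2 as the upper and replicate 1 as the lower bar of each pair, protein-coding transcripts in green and retained-intron transcripts in gold. Hba-a1-202 holds 75.6% and 72.6% of Hba-a1, whereas Hba-a2-201 holds nearly all of Hba-a2.

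Between the libraries, 6 of the 7 globins had nearly the same level and Hbb-bh1 did not. Hbb-bh1 had 723 reads in replicate 2 and 733 in replicate 1, which after TMM scaling for depth were 623 in replicate 2 and 851 in replicate 1, a log2 ratio of -0.45 or 1.37-fold lower in replicate 2, with a counting error of 0.08. Hba-x, the other low embryonic form, had a log2 ratio of -0.12, Hba-a1 -0.06, Hba-a2 0.04, Hbb-y 0.00, and Hbb-bs and Hbb-bt 0.02 each. The deposited intervals of Hbb-bh1 did not overlap, at 46.2 to 53.4 TPM in replicate 2 and 61.7 to 71.3 TPM in replicate 1.

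Taking the higher library as over 25% above the lower, 1 of the 7 globins differed, against 4.26% of the 13185 genes with a mean of 100 counts or more in either direction and 1.96% lower in replicate 2. The SD of the log2 ratio was 0.17 over the 2181 genes with a mean of 500 to 1000 counts, where Hbb-bh1 lies, 0.10 over 7067 genes of 1000 to 10000 counts, where Hba-x lies, and 0.08 over 553 genes of at least 10000 counts, where the other 5 lie. The ratio of Hbb-bh1 exceeded its SD, that of Hba-x was slightly larger than its own, and those of the other 5 lay within theirs. With 1 library on each side there is no p-value, and this describes the libraries alone.

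**Figure D4:**
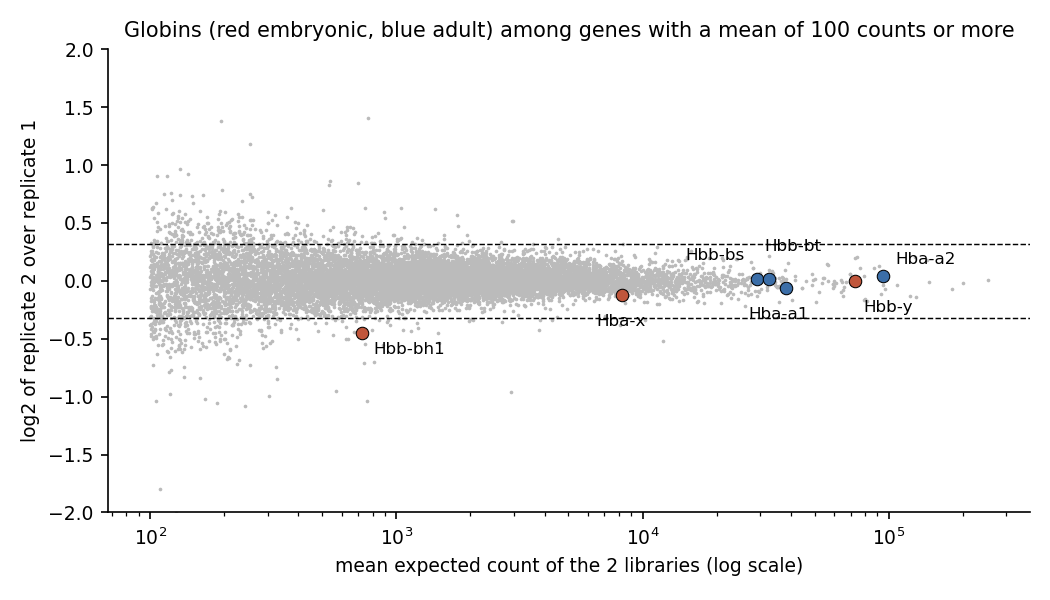
Log2 ratio of replicate 2 over replicate 1 (vertical axis, TMM-scaled counts) against the mean expected count (log axis) for genes averaging 100 counts or more (grey) and the 7 globins (embryonic red, adult blue), with dashed lines at 25% apart. Hbb-bh1 at -0.45 lies below the lower line and the other globins lie between the lines, while 10 grey genes with a ratio beyond -2 or 2 are not drawn.

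Other genes of red cells and of the liver also differed between the libraries, and their values stand here beside that of Hbb-bh1. Of 20 genes for red cell membrane and enzymes, 15 were lower in replicate 2, against 8889 of the 17982 genes with a mean of 10 counts or more. Their median log2 ratio was -0.48, against 0.00 over those 17982 genes. Of the 14 averaging 100 counts or more, 7 were over 25% apart in that direction, against 1.96% of all 13185 such genes. An example chosen after its values were seen was Slc4a1, the anion exchanger of the red cell membrane, with 5.98 TPM in replicate 2 and 9.69 TPM in replicate 1. Another, Hemgn, a nuclear protein of red cell precursors, had 0.430 TPM in replicate 2 and 2.72 TPM in replicate 1. The abundant members of that list, Slc2a1 (94.4 ± 6.85 TPM), Epb41 (59.1 ± 4.70 TPM), Gypc (46.6 ± 0.792 TPM) and Bpgm (36.3 ± 4.02 TPM), had ratios between -0.08 and 0.13.

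In the marker list for fetal liver hepatocytes, 11 of 11 members averaging 10 counts or more were lower in replicate 2, with a median log2 ratio of -2.63. Among all genes averaging 10 counts or more, 8889 of 17982 were lower in replicate 2. Its summed level was 20.2 TPM in replicate 2 and 75.9 TPM in replicate 1, 4 of 12 genes reached 1 TPM in both libraries, and no member was at 0 in both. Afp, alpha-fetoprotein, had 1.73 TPM in replicate 2 and 22.3 TPM in replicate 1, Apoa2 1.68 TPM and 12.9 TPM, Apoa1 2.36 TPM and 8.19 TPM, and Trf, transferrin, 12.2 TPM and 19.4 TPM. Apob was lowest, with 0.120 TPM in replicate 2 and 0.340 TPM in replicate 1. The liver is where definitive red cells form at this age, and the part of liver RNA in the difference of Hbb-bh1 was not tested.

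Markers of megakaryocytes and platelets were lower in replicate 2 in 6 of 6 cases, against 8889 of 17982 among all genes averaging 10 counts or more. Their median was -0.41, with a summed level of 44.5 TPM in replicate 2 and 57.1 TPM in replicate 1. Macrophage markers did not show this: 1 of 9 was lower in replicate 2 and the median was 0.05, with Vcam1, C1qb, Hmox1 and C1qa highest and Spic, a factor of iron-recycling macrophages, at 0.0350 TPM. Limb mesenchyme and cartilage markers were all detected, 8 of 8, with a median ratio of 0.00, and were led by Col2a1 (647 ± 73.6 TPM), Msx1 (253 ± 39.1 TPM), Sox9 (181 ± 9.69 TPM) and Prrx1 (141 ± 11.3 TPM), with Hoxa13 lowest (21.7 ± 1.86 TPM). In 2 of the 8 the libraries were over 25% apart, in opposite directions, against 4.26% of the 13185 background genes in either direction. Both of these limb genes were named after their values were seen. The forelimb factor Tbx5 had 36.5 TPM in replicate 2 and 25.2 TPM in replicate 1, a log2 ratio of 0.51 that is larger in size than that of Hbb-bh1. The hindlimb factor Pitx1 had 73.8 TPM in replicate 2 and 90.4 TPM in replicate 1, a log2 ratio of -0.34. Their part in the difference of Hbb-bh1 was not tested. The limb markers were thus present in both libraries, but there was no other tissue to compare their levels with.

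**Figure D5:**
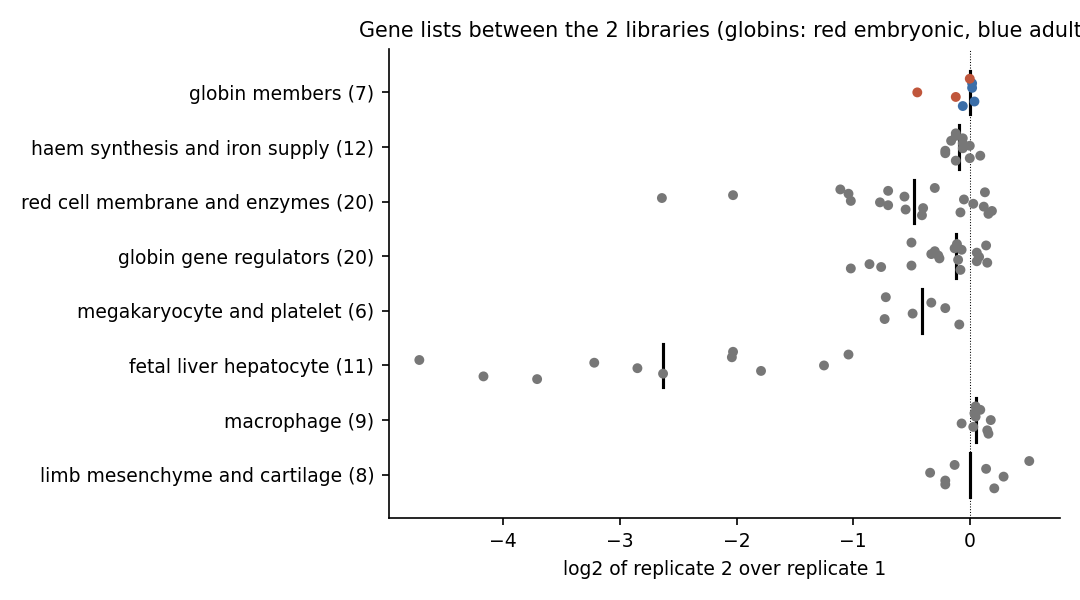
Log2 ratio of replicate 2 over replicate 1 for each gene averaging 10 counts or more in 8 gene lists, with the number of genes in brackets and the median as a vertical bar; globins are red (embryonic) or blue (adult). The hepatocyte genes lie at a median of -2.63 and the red cell membrane and enzyme genes at -0.48, while the globins centre on 0.00.

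Each globin chain binds haem. Of 13 listed genes for haem synthesis and iron supply, 12 were matched, and all 12 had 1 TPM or more in both libraries. Their median was 41.2 TPM. Among the highest were Urod (87.2 ± 6.70 TPM), Alad (68.6 ± 3.22 TPM) and Ppox (59.5 ± 4.67 TPM), enzymes used in every haem-making cell, and the lowest was Cpox (12.4 ± 1.17 TPM). Alas2, the first enzyme of the pathway in red cells, had 40.6 TPM in replicate 2 and 38.0 TPM in replicate 1. Of the 12 genes 0 were over 25% apart with replicate 2 lower, where 1.96% of all genes were, and their median ratio was -0.09.

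Of 20 regulators of globin genes 17 were detected, and the list's median level was 4.99 TPM. Ldb1, which links globin enhancers to promoters, had 100 ± 4.79 TPM, Bcl11a, a silencer of embryonic globin genes, 65.9 ± 3.26 TPM, Klf3, a repressor of embryonic globins, 23.8 ± 1.02 TPM, and Sox6, a silencer of Hbb-y that cartilage cells also use, 22.4 ± 1.14 TPM. All of these are made by cells other than red cells too, and a whole limb does not say which cells carried them. The red cell activators were low, Klf1 at 2.01 TPM in replicate 2 and 3.61 TPM in replicate 1 and Gata1 at 0.880 TPM and 1.56 TPM, and Gfi1b was lowest at 0.675 ± 0.205 TPM. The list's median ratio was -0.12. Of its genes, 15 of 20 were lower in replicate 2, against 8889 of 17982 among all genes averaging 10 counts or more. Over 25% apart in that direction were 2 of 15, against 1.96% of all genes averaging 100 counts or more.

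Genes next to the globin loci stood below 6 of the 7 globins, and the highest of them were close to Hbb-bh1 (50.7 TPM in replicate 2 and 68.3 TPM in replicate 1). On chromosome 11, Snrnp25 (52.0 ± 4.41 TPM), Rhbdf1 (51.1 ± 2.43 TPM), Nprl3 (38.1 ± 0.643 TPM) and Mpg (35.7 ± 0.361 TPM) lie before the alpha genes and Sh3pxd2b (23.8 ± 3.21 TPM) on the other side, while Nprl3 holds enhancers of the alpha genes in its introns. On chromosome 7, the 5 olfactory receptor genes Olfr64, Olfr66, Olfr67, Olfr68 and Olfr69 had 0 counts in each library, and the limit that a count of 0 allows (3 counts) was 0.0709 CPM in replicate 2 and 0.0960 CPM in replicate 1.

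Other globin genes added little. Within the beta cluster, Hbb-bh0, a pseudogene of 129 nt between Hbb-bh1 and Hbb-y, had 40 reads in replicate 2 and 22 in replicate 1, given as 48.2 TPM and 35.2 TPM over an effective length of 30 nt. Hbb-bh2 had 1 read in replicate 2 and 0 in replicate 1, and Hbb-bh3 0 in both. In the alpha cluster, the theta-like genes Hbq1b and Hbq1a had 1.53 TPM and 0.330 TPM in replicate 2, against 2.69 TPM and 0.380 TPM in replicate 1. Outside the clusters, the pseudogene Hba-ps4 had 0.310 TPM in replicate 2 and 0 TPM in replicate 1, the muscle oxygen store myoglobin, Mb, 10.2 TPM and 7.14 TPM, and cytoglobin, Cygb, 6.01 TPM and 4.98 TPM. The neural globin Ngb (0.270 ± 0.113 TPM) and the large globin Adgb (0.420 ± 0.0566 TPM) were below 1 TPM.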

How the data were processed

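Per the labels, reads were analysed on mm10. A text file beside each deposited table names GENCODE M4 as annotation. For the aligner, the quantifier, the read length and the use of strand, the sources used here give nothing. The authors deposited a gene and a transcript table per library. Expected counts, as deposited, are estimates in which a read matching more than 1 transcript is shared out. The deposited TPM values were taken to be these counts divided by effective length, although the file headers give column names and no formula. The posterior mean TPM is a second deposited estimate. The bounds of the credibility intervals were handled as a score, since the deposited upper bounds can sum to more than a TPM total. The deposited IsoPct column was likewise read as a percent of a gene's TPM. Length exceeded effective length by 99 nt, hence windows of 100 nt.

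Symbols matched 42462 of 43346 Ensembl identifiers. The other 26249 rows held 1.81e-04% of the counts and were left out. Ahsp, Hbb-b1, Hbb-b2 and Olfr65 were matched to no identifier and are not analysed here. GENCODE M21, on that assembly, gave positions, transcript types and transcript sequences, in which some transcripts differ in version from the tables, and upstream sequences from RefSeq. Coding sequences were aligned with Biopython 1.88. Detected means at least 1 TPM in each library. For ratios between libraries, expected counts were scaled with edgeR 4.0.16 TMM factors (R 4.3.3, computed on rounded counts of genes with at least 10 counts, without spike-ins), 0.5 was added, and genes averaging 100 counts or more formed the background. DESeq2 1.42.0 gave alternative size factors. The remaining steps used Python 3.11.15, pandas 2.3.3, numpy 2.4.6, scipy 1.17.1 and matplotlib 3.10.9. The scaling step was tested on simulated data.

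The members and gene lists were chosen with earlier results of these data known. Beside the 7 members and the other globin genes, the 4 highest and the lowest members of each list in mean TPM are named, and further genes where they bear on a count; a few that the rule picks are not reported here.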

Additional observations from a re-analysis of the deposited data

How the results depend on the processing

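The embryonic shares and level ratios depended mainly on division by length and on which transcripts were summed. On expected counts the mean embryonic share of the alpha-like genes was 5.85% in place of 4.10%, the log2 ratio of alpha-like over beta-like was 0.06 in place of 0.36, that of Hbb-y over Hba-x 3.15 in place of 3.37, and that of Hbb-bt over Hbb-bs 0.16 in place of -0.01, a change of sign, while the 7 globins held 0.753% in place of 2.25%. With protein-coding transcripts alone the embryonic share was 5.17% for alpha-like and 63.7% for beta-like genes, which for beta-like genes stood in place of 54.9%, the alpha-like over beta-like ratio was 0.23, Hba-a2 over Hba-a1 3.24 in place of 1.29, Hbb-bt over Hbb-bs 1.34, again of the other sign, and the share of the 7 globins 1.85%. That share was 2.20% with posterior mean TPM. The shares of TPM refer to a total that includes the spike-ins, whereas the 0.753% refers to gene counts without them. With Hbq1a, Hbq1b and Hba-ps4 added to the alpha-like genes and Hbb-bh0, Hbb-bh2 and Hbb-bh3 to the beta-like genes, the alpha-like over beta-like ratio was 0.35. A threshold of 1.5-fold in place of 25% left 0 globins apart between the libraries in place of 1, with no test behind either count. In a comparison chosen after seeing the data, protein-coding transcripts alone gave a log2 ratio of Hba-a1 over Hbb-bs of 0.05 in place of 0.66, and of Hba-a1 over Hbb-bt of -1.28 in place of 0.67, a change of sign. Of the 52 alternative values for shares, level ratios and that count, 36 lay within 1 SD or 1.5 times of the reported one. Those 36 include every value from 1 library alone, which lies within 1 SD of the mean of 2 whatever the data. The count is therefore no measure of how stable the results are. All 42 alternative values for the ratios between the libraries, under 5 other scalings or with 5 counts added, moved by less than the SD over all genes. That SD, 0.24, is wider than those of the count classes where the globins lie. Among the scalings of counts, the log2 scale factor shifted most with spike-in totals, by -0.0255. Such shifts could not have passed that SD. No paired analysis was possible because both libraries belong to 1 group. The depth of 723 and 733 reads limits what can be said of Hbb-bh1, and shared reads limit the balance within each adult pair.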
